A study of Mus musculus with 5 samples.

Results

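The genes described here encode parts of the renin-angiotensin system. They were chosen by name, as the probes that the platform annotation assigns to Agt, Ren1, Ace, Agtr1a, Agtr2 or Atp6ap2. Of these 6 listed genes 5 had a named probe, on 6 probes in all (2 for Agt), out of 19084 genes and 26423 probes. Ren1 had no named probe and was not analysed here. The list was drawn up with results of these same arrays in view, so the readings and differences of the 5 genes are a description, with no test.

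Transcript levels came from 5 single-colour (Cy5) mouse arrays. The iLC group is 2 arrays of induced Leydig-like cells, which are fibroblasts from embryos of 13.5 days that received Dmrt1, Gata4 and Nr5a1, 3 gonadal transcription factors, by lentivirus (12 hours of exposure) and were then kept in a medium with added PDGFAA (10 ng/ml) and IGF (50 ng/ml). The Leydig group holds 2 arrays of testicular Leydig cells, which make androgens, isolated from mice aged 56 days. The MEF group is 1 array of embryonic fibroblasts of the same embryo age transduced with a mock vector, and the labels do not settle whether those cells also received the factor medium. The promoter that drove the factors, the mouse strain and whether animals or cultures were pooled are likewise not stated. Since no label ties the 2 arrays of a group to separate animals or cultures, p-values below measure only the spread between these arrays, which may be technical.

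In the renin-angiotensin system, the protease renin cuts angiotensinogen, the product of Agt, to angiotensin I, and angiotensin-converting enzyme, the product of Ace, trims that peptide to angiotensin II. Angiotensin II acts through the type 1 receptor (Agtr1a and, in rodents, the related Agtr1b) and the type 2 receptor (Agtr2). Atp6ap2 encodes the (pro)renin receptor, which is also an accessory subunit of the vacuolar proton pump. Testes hold a local form of the system, in which Ace is transcribed from different start sites in somatic cells and in germ cells.

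The sequences around the start sites are shown because Agt and Ace had the widest group differences of the 5 genes and because Ace has more than 1 annotated start. RefSeq windows (GRCm38.p6) running from 250 bases before to 50 after the start are printed for Agt, Ace (2 windows), Agtr2 and Atp6ap2, the measured genes that have one. They lie at chr8:124569657-124569956 on the minus strand for Agt, chr11:105967698-105967997 and chr11:105974939-105975238 on the plus strand for Ace, chrX:21484374-21484673 on the plus strand for Agtr2 and chrX:12587509-12587808 on the plus strand for Atp6ap2. Each is printed 5′ to 3′ along the gene, with matches to 5 short motifs on either strand in capitals.
Agt: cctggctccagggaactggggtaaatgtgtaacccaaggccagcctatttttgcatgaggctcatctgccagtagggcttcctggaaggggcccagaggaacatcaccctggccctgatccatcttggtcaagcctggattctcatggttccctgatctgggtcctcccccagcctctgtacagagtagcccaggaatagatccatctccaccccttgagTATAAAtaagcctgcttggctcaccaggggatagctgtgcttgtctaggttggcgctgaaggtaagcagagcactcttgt
Ace, upstream start: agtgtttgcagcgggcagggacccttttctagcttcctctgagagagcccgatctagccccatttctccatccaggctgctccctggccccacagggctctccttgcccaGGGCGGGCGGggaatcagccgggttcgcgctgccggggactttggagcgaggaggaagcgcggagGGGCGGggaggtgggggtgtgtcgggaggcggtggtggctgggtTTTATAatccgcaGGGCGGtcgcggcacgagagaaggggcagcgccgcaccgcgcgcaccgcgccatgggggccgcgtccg
Ace, internal start: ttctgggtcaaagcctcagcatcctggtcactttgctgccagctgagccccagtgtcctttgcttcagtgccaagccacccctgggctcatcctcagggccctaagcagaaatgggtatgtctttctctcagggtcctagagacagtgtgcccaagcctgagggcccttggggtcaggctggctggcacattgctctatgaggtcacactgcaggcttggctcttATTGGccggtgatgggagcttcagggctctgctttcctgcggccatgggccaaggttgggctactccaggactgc
Agtr2: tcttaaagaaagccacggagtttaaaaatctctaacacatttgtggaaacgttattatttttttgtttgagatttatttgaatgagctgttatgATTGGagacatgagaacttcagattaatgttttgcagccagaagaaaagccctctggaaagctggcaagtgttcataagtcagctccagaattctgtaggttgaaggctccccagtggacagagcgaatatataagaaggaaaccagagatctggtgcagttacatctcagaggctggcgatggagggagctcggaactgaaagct
Atp6ap2: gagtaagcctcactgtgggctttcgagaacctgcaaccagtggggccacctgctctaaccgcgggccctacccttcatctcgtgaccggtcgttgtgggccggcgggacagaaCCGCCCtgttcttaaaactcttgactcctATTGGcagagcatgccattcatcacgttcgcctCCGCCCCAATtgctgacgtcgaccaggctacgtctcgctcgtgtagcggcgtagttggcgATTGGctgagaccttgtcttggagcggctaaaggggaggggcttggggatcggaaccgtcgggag

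The motifs were the TATA box (TATAAA), the CCAAT box (CCAAT), the GC box (GGGCGG), an extended nuclear receptor half-site of the kind that Nr5a1 binds (AAGGTCA) and a GATA motif (AGATAA). The Agt window held TATAAA once, 30 bases before the start, a match that 13.6% of 32851 windows of the same length contain. The upstream Ace window was 69.7% GC with 29 CpG dinucleotides, against a median of 52.7% GC over all windows, and held 4 GC boxes, of which 2 overlap, and TATAAA on the opposite strand. The internal Ace start lies 7241 bases downstream, in a window of 59% GC with 2 CpG dinucleotides, a CCAAT box on the opposite strand and no match to the GC box. GC boxes occur in 35.7% of windows and CCAAT boxes in 37.4%. The Agtr2 window, at 41.3% GC, held 1 CCAAT box, and the Atp6ap2 window held 2 GC boxes and 3 CCAAT boxes, of which a GC box and a CCAAT box overlap by 1 base. AAGGTCA (4.72% of all windows) and AGATAA (11.2%) had no match in these windows. The labels and the annotation do not place the Ace probe on the transcripts of the upstream start, the internal start or both, so its reading does not say which start was used.

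Before the values, 1 property of the Leydig arrays bears on them. Array medians were close, at 1157 and 1215 on the iLC arrays, 1111 and 1230 on the Leydig arrays and 1144 on the MEF array. The labelled cell types showed part of their defining markers. Nr5a1, 1 of the delivered factors, read 1509 and 1158 on the iLC arrays, 68030 and 44721 on the Leydig arrays and 1265 on the MEF array, so its reading does not set the iLC arrays apart from the MEF array. Whether that probe lies within the delivered sequence is unknown, and iLC means the arrays labelled so. Hsd3b1 read 27160 and 34513 on the iLC arrays, 218338 and 95740 on the Leydig arrays and 830 on the MEF array, and Star read 56878 and 73892 on the iLC arrays, 1368 and 19703 on the Leydig arrays and 695 on the MEF array. Cyp17a1 read 1382 and 2351 on the iLC arrays, 40614 and 197728 on the Leydig arrays and 2344 on the MEF array. The Cyp11a1 probe stayed at 510 and 451 on the Leydig arrays, against 562 on the MEF array. Hsd17b3 read 3738 and 799 on the iLC arrays, 1124 and 3680 on the Leydig arrays and 2165 on the MEF array, so it did not set the Leydig arrays apart. Insl3 and Lhcgr had no named probe. The 8 fibroblast markers summed to 756426 and 607796 on the iLC arrays, 429517 and 271755 on the Leydig arrays and 1127780 on the MEF array. Their readings on the Leydig arrays were mixed, since Fn1 read 1039 and 673 there against 218059 on the MEF array, while Dcn read 317284 and 244914 against 88499. Germ cell transcripts were present in the Leydig preparations, and their sum was far larger on replicate 2. Not every marker shared that gap. Odf1 read 2692 and 356634 on Leydig replicates 1 and 2, whereas Dazl read 3150 and 2389 there, against 205 and 179 on the iLC arrays and 329 on the MEF array. Ddx4 read 3672 and 3609 on the Leydig arrays, 4360 and 3710 on the iLC arrays and 2668 on the MEF array. The Ddx4 probe therefore did not set the Leydig arrays apart. The 12 measured germ cell markers of 12 listed summed to 41285 and 1174500 on the Leydig arrays, against 12856 and 12817 on the iLC arrays and 10707 on the MEF array, and none read 0. Leydig replicate 2 therefore stands apart, and the differences of the 5 genes from Leydig cells are given below with and without it.

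**Figure D1:**
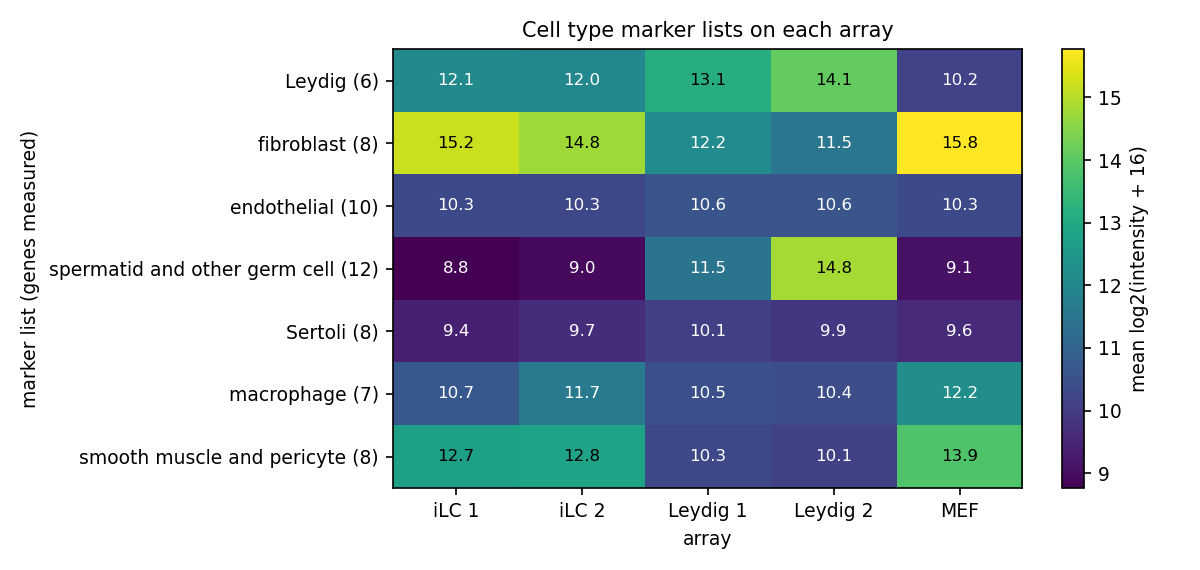
Mean log2(intensity + 16) of the measured genes of each cell type marker list (rows, with the number of genes) on each of the 5 arrays (columns). The germ cell list reads 14.8 on Leydig replicate 2, 11.5 on Leydig replicate 1 and 9.1 or less on the other 3 arrays.

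Agt, the source of all angiotensin peptides, was bright on the Leydig arrays and dim elsewhere. Its brighter probe read 579 and 179.6 on the iLC arrays, 37101 and 100150 on the Leydig arrays and 179 on the MEF array. The other Agt probe read 511 and 277 on the iLC arrays, 29290 and 86084 on the Leydig arrays and 257 on the MEF array. Both probes thus placed the Leydig arrays far above every other array, with no overlap. Over all genes, 19% had both Leydig arrays above every other array. On the MEF array and on iLC replicate 2 the brighter probe lay at the 11.7th and 17th percentile of all probes, close to the low end of those arrays, so the size of the fold rests on dim readings.

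All differences below are on the log2(intensity + 16) scale, from a linear model over the 5 arrays, with the standard error (SE) that it gives. For Agt the difference was -7.48 ± 0.68 for iLC minus Leydig (-7.00 ± 0.58 by the other probe) and 8.29 ± 0.83 for Leydig minus MEF (7.53 ± 0.72). Only 12 of 19084 genes had a difference at least as large in either comparison, Agt included. Without Leydig replicate 2 the differences were -6.77 and 7.57, so the groups stayed far apart on the other Leydig array. Both Agt probes were brighter on Leydig replicate 2, the array with the larger germ cell sum. The part of germ cells in the Agt reading was not tested. Fewer cells of a type and less RNA per cell cannot be told apart in such bulk samples. The iLC minus MEF difference of Agt was 0.81 ± 0.83, and the 2 iLC arrays differed from each other by 1.60. It was 0.01 without iLC replicate 1 and 1.61 without iLC replicate 2. Agt in iLC therefore could not be told from its dim MEF reading at this replication, and the induced cells lay at the fibroblast end of its range.

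Ace, which makes angiotensin II and also breaks down bradykinin, was likewise brightest on the Leydig arrays. It read 382 and 624 on the iLC arrays, 12618 and 7595 on the Leydig arrays and 497 on the MEF array. The iLC and MEF readings lay between the 31.6th and the 38.3rd percentile of all probes, so the size of the fold rests on low readings there. The Leydig arrays lay above all others, as for 19% of all genes, and the MEF reading fell between the iLC readings. The difference was -4.28 ± 0.41 for iLC minus Leydig, 4.26 ± 0.50 for Leydig minus MEF and -0.02 ± 0.50 for iLC minus MEF. The last of these is close to 0 and its sign changed with the scaling, at 0.08 after quantile normalization and 0.21 with the low ends of the arrays aligned. It also changed with the array, at 0.32 without iLC replicate 1 and -0.37 without iLC replicate 2.

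Since testicular Ace is also a germ cell and an endothelial product, markers of those cells were set beside it. Ace was lower on Leydig replicate 2, the array with the larger germ cell sum, than on Leydig replicate 1. Without Leydig replicate 2 the iLC minus Leydig difference was -4.65 and the Leydig minus MEF difference 4.62, and without Leydig replicate 1 they were -3.91 and 3.89. Germ cell markers were nonetheless above the MEF level on Leydig replicate 1 too, where Prm1, a sperm protamine gene, read 6235 against 238 on the MEF array, and their part in the Ace reading there was not tested. The 10 measured endothelial markers of 10 listed summed to 24017 and 26275 on the iLC arrays, 27056 and 22604 on the Leydig arrays and 15737 on the MEF array, and none read 0. Of these, the endothelial cadherin gene Cdh5 read 1216 and 1145 on the iLC arrays, 10224 and 6400 on the Leydig arrays and 771 on the MEF array, so that, as for Ace, the Leydig arrays lay above all others. Another defining endothelial marker, Pecam1, read 1337 and 1546 on the iLC arrays, 1202 and 1143 on the Leydig arrays and 1027 on the MEF array. Eng was also brightest on the Leydig arrays (5148 and 3929, against 3091 on the MEF array). Emcn (396 and 403, against 2066) and Kdr (1709 and 1591, against 2087) were lowest there. Of the 10 markers limma called 1 higher and 1 lower in Leydig cells than in MEF. The part of endothelial cells in the Ace reading was not tested.

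**Figure D2:**
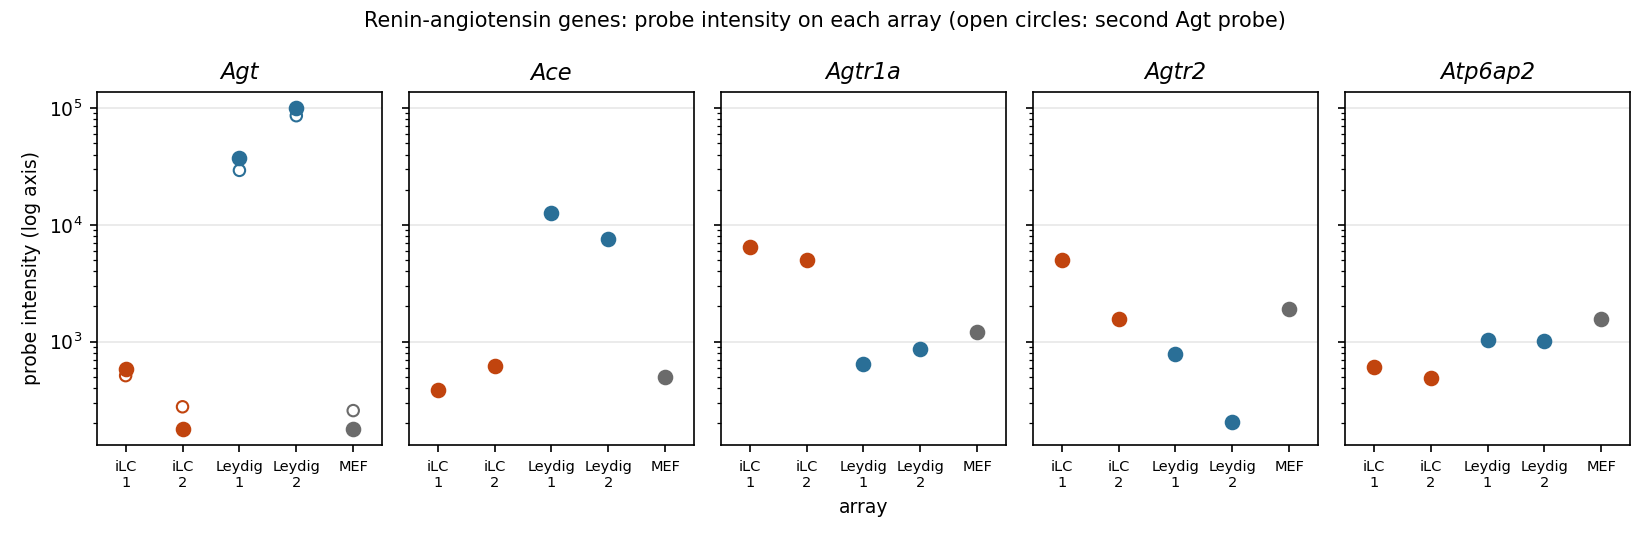
Probe intensity (log axis) of Agt, Ace, Agtr1a, Agtr2 and Atp6ap2 on each array, with 1 point per probe and array. Filled circles are the probe used for each gene and open circles the other Agt probe. Agt and Ace are high on the Leydig arrays, Agtr1a on the iLC arrays, and Agtr2 spreads widely within both pairs.

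The receptors had another order. Agtr1a, the receptor behind most pressor and aldosterone-releasing effects of angiotensin II, read 6415 and 5003 on the iLC arrays, 648 and 863 on the Leydig arrays and 1208 on the MEF array. The iLC arrays lay above all others, as for 17.6% of all genes. The Leydig arrays lay below the MEF array by less than a factor of 2 (a linear ratio of 1.60 from the fitted log2 means). The difference was 2.21 ± 0.41 for iLC minus MEF, 2.89 ± 0.33 for iLC minus Leydig and -0.68 ± 0.41 for Leydig minus MEF. Agtr1a was steady within pairs, with differences of 0.36 within the iLC pair and 0.40 within the Leydig pair. Without Leydig replicate 2 the iLC minus Leydig difference was 3.10 and the Leydig minus MEF difference -0.88. Agtr1b, the rodent copy of the type 1 receptor and not one of the listed genes, read 618 and 738 on the iLC arrays, 680 and 657 on the Leydig arrays and 626 on the MEF array, so its probe did not show the pattern of Agtr1a.

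Agtr2, a receptor known for its abundance in fetal mesenchyme, read 4970 and 1564 on the iLC arrays, 779 and 205 on the Leydig arrays and 1885 on the MEF array. Both iLC arrays lay above both Leydig arrays, but the MEF reading fell between the iLC readings. Each pair was far apart, by 1.66 within the iLC pair and 1.85 within the Leydig pair, and only 2.37% and 2.71% of all genes differed as much or more within those pairs. Leydig replicate 2 lay at the 18.9th percentile of all probes, so the Leydig gap and the differences from Leydig cells rest partly on a dim reading. The difference was 2.74 ± 0.77 for iLC minus Leydig, -2.18 ± 0.94 for Leydig minus MEF and 0.56 ± 0.94 for iLC minus MEF. Without Leydig replicate 2 the first and second were 1.82 and -1.26. The iLC minus MEF value was -0.27 without iLC replicate 1 and 1.39 without iLC replicate 2, so its direction is not settled by these arrays. Agt and Agtr2 were both about 3 times brighter on iLC replicate 1 than on iLC replicate 2 (3.04 and 3.16 times), a spread that Agtr1a (1.28) did not show.

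Atp6ap2, the (pro)renin receptor, had the narrowest range of the 5 genes. It read 605 and 491 on the iLC arrays, 1028 and 1007 on the Leydig arrays and 1549 on the MEF array, so the 3 groups did not overlap. The iLC arrays lay below every other array, as for 18.5% of all genes, and the MEF array above every other, as for 27%. Its only probe lay between the 34.2nd and the 55.1st percentile of all probes, and how well it reports the transcript is unknown. The difference was -1.48 ± 0.38 for iLC minus MEF, -0.88 ± 0.31 for iLC minus Leydig and -0.60 ± 0.38 for Leydig minus MEF. Without Leydig replicate 2 the last 2 were -0.90 and -0.58. Of all genes, 10.5%, 29.5% and 43.4% had differences at least as large in these comparisons.

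**Figure D3:**
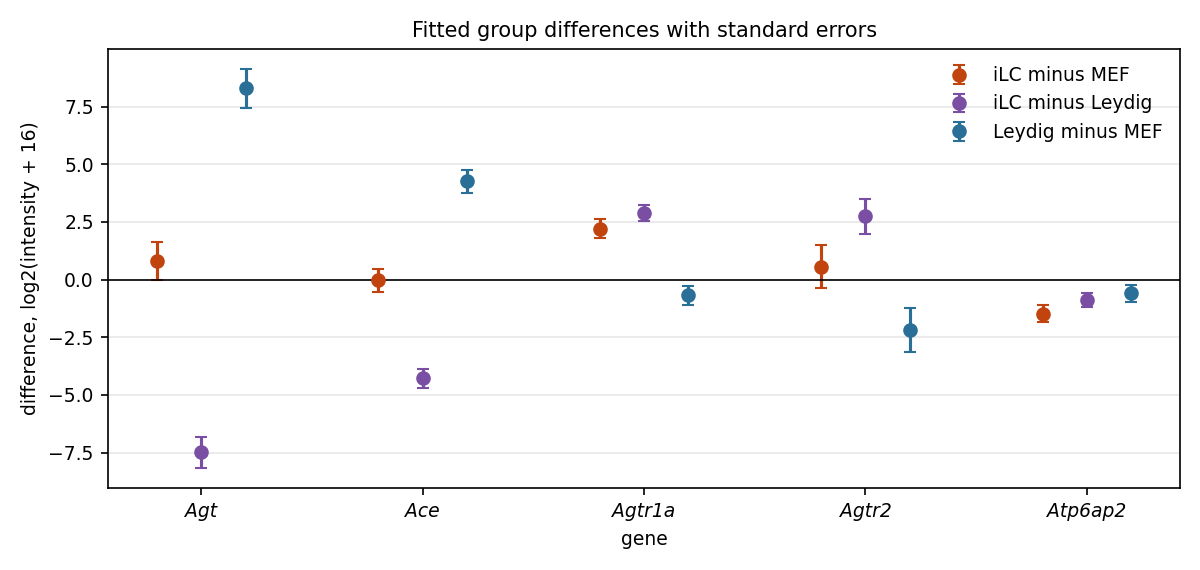
Fitted difference in log2(intensity + 16), with its standard error as a bar, for each gene and each pair of groups. Agt and Ace lie far below 0 for iLC minus Leydig and far above it for Leydig minus MEF, and Agtr1a lies above 0 for iLC minus MEF (2.21) and iLC minus Leydig (2.89).

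Counted over the 5 genes, the iLC arrays lay wholly below the Leydig arrays for Agt, Ace and Atp6ap2 (29.1% of all genes) and wholly above them for Agtr1a and Agtr2 (28.9%). That groups did not overlap is common in so small a design, as it held for 58.0% of all genes between iLC and Leydig cells, 78.4% between iLC and MEF and 77.1% between Leydig cells and MEF, where the lone MEF array makes overlap rare. Between iLC and MEF, Agt and Agtr1a read higher on both iLC arrays (34.0% of all genes), Atp6ap2 lower on both (44.4%), and Ace and Agtr2 overlapped. Between Leydig cells and MEF, Agt and Ace read higher on both Leydig arrays (33.0% of all genes) and Agtr1a, Agtr2 and Atp6ap2 lower (44.1%). The comparisons share arrays, so these orders are not independent of each other. Over the 5 arrays, log2 readings of Agt and Ace correlated at 0.94 and those of Agtr1a and Agtr2 at 0.74, while the Agt and Agtr1a readings correlated at -0.70, values that describe 5 arrays in 3 groups.

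**Figure D4:**
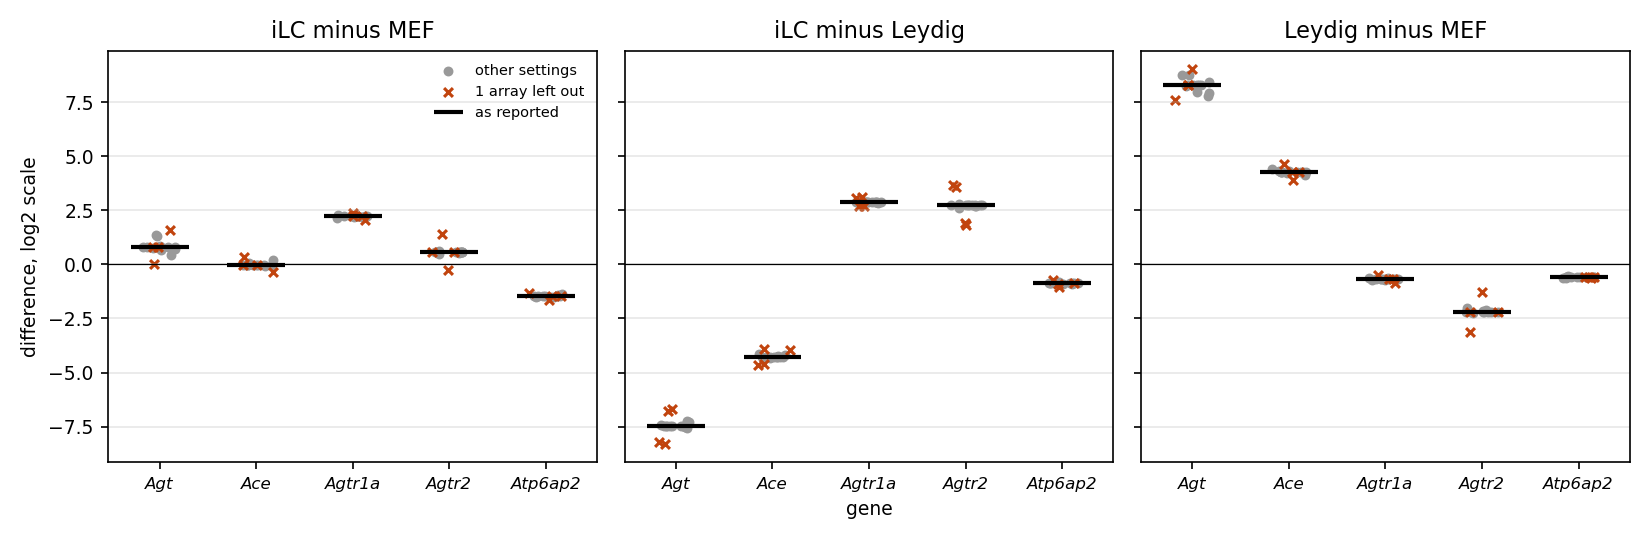
Difference on the log2 scale for each gene in each comparison as reported (black line), with 1 array left out (crosses) and under the other processing settings (grey points). The points of Agt and Agtr2 spread most, and those of Ace and Agtr2 for iLC minus MEF lie on both sides of 0.

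The genes whose readings ran most like each member were taken as the 3 with the smallest root mean square difference from it over the 5 arrays, after each gene was centred on its own log2 mean. Nearest to Agt were Mmd2 (0.69), Acsbg1 (0.77) and Cstdc2 (0.97). Nearest to Ace were Lnx1 (0.22), Irf7 (0.24), an interferon regulatory factor, and Il18bp (0.25), the interleukin-18 binding protein gene. Nearest to Agtr1a were Sgtb (0.13), Gfra2 (0.16), a receptor for neurturin, and Rdh10 (0.20), a retinol dehydrogenase. Nearest to Agtr2 were Gpc6 (0.30), Fkbp11 (0.30) and Emilin2 (0.32), and nearest to Atp6ap2 were Slc29a2, Epx and Ncoa3 (0.06 to 0.08). The nearest neighbours of Agt thus lay farther from it than those of the other 4 genes did from theirs. Acsbg1, for example, read 3150 and 2515 on the iLC arrays, 266389 and 257123 on the Leydig arrays and 1521 on the MEF array, without the gap that Agt showed between the Leydig arrays.

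The rest of the pathway was read from 6 lists of 113 genes drawn up from textbook knowledge, of which 101 were measured. Earlier results of these data were known when the lists were chosen. Their calls and adjusted p-values therefore describe these arrays and give no independent support. The 101 genes were tested with limma, and called means a Benjamini-Hochberg adjusted p under 0.05 over all 19084 genes. Between iLC and Leydig cells 13 of the 101 (12.9%) were called, 7 higher and 6 lower, against 11.4% of all genes (5.74% higher, 5.69% lower). Between Leydig cells and MEF 5 (4.95%) were called, 4 higher and 1 lower, against 7.38% of all genes (3.39% higher, 3.99% lower). Between iLC and MEF 1 (0.99%) was called, as higher, against 0.571% (0.283% higher, 0.288% lower). The shares lie near those of all genes, so the wider pathway as a whole was not set apart by its count. Leaving out each of the 4 paired arrays in turn gave counts of 3 to 7, 1 to 2 and 0.

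Of the 15 measured further peptidases, receptors and binding proteins of the angiotensin pathway, limma called 0 in each of the 3 comparisons, with 1, 1 and 0 at an unadjusted p under 0.05 for iLC against MEF, iLC against Leydig and Leydig against MEF. The share of all genes under that unadjusted threshold is not given here. Counts at it, for this list and those below, therefore show neither an excess nor its absence. The median differences of this list were 0.05, 0.11 and -0.40, against -0.11, -0.03 and -0.10 over all genes. Anpep, the aminopeptidase that trims angiotensin III, read 1049 and 2242 on the iLC arrays, 450.3 and 562 on the Leydig arrays and 1115 on the MEF array (iLC minus Leydig 1.58 ± 0.44, adjusted p = 0.0729). Rnpep, aminopeptidase B, had an iLC minus MEF difference of -0.97 ± 0.38 (adjusted p = 0.302), and Prcp, a lysosomal carboxypeptidase that removes the last residue of angiotensin II, an iLC minus Leydig difference of -0.73 ± 0.36 (adjusted p = 0.265). Mas1, the receptor for angiotensin 1-7, read 643 and 668 on the iLC arrays, 885 and 799.5 on the Leydig arrays and 600 on the MEF array. Lnpep and Klk1 were among the listed genes with no named probe.

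Proton pump subunits, the partners of Atp6ap2, were not called either. Limma called 0 of 22 measured subunits in each comparison, with 1, 5 and 1 at an unadjusted p under 0.05 for iLC against MEF, iLC against Leydig and Leydig against MEF. Their median difference was 0.30 for iLC minus MEF, 0.43 for iLC minus Leydig and -0.16 for Leydig minus MEF, against -0.11, -0.03 and -0.10 over all genes. The subunits with the largest differences were Atp6ap1l (Leydig minus MEF 1.60, adjusted p = 0.243), Atp6v1e2 (iLC minus MEF 1.18, adjusted p = 0.348) and Atp6v0d2 (Leydig minus MEF -1.14, adjusted p = 0.573).

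Genes of the kinin system, which shares Ace as its degrading enzyme, gave calls for Kng1, Kng2 and Xpnpep2 among 12 measured. Of all genes, 11.4% were called between iLC and Leydig cells, 7.38% between Leydig cells and MEF and 0.571% between iLC and MEF. Whether the counts of this list and those below exceed the shares of all genes was not tested. Xpnpep2, a membrane aminopeptidase P that cleaves bradykinin, read 193 and 283 on the iLC arrays, 2015 and 1557 on the Leydig arrays and 242 on the MEF array. Xpnpep2 had the Leydig arrays above all others, as Ace and 19% of all genes did. It was lower in iLC than in Leydig cells by a difference of -2.84 ± 0.35 (adjusted p = 0.0054) and higher in Leydig cells than in MEF by 2.79 ± 0.43 (adjusted p = 0.0162). The first call held without each 1 of the 4 arrays and the second was lost without either Leydig array (highest adjusted p = 0.0783). The kininogen Kng2 read 3269 and 3832 on the iLC arrays, 66.7 and 71.5 on the Leydig arrays and 351 on the MEF array by its brightest probe (iLC minus MEF 3.28, adjusted p = 0.0331). Its other 2 probes differed by only -0.03 and 0.33 between iLC and MEF, so the Kng2 calls rest on 1 probe. Its iLC minus Leydig difference of 5.39 (adjusted p = 0.00101) was 3.94 with each array floored at its 20th percentile and 2.10 with its probes averaged. The calls against MEF were lost without any 1 of the 4 arrays. Kng1, its close copy, was higher in iLC than in Leydig cells by 1.95 (adjusted p = 0.0128), with its 5 probes ranging from -0.67 to 2.00, a call lost without any 1 of the 4 arrays (highest adjusted p = 0.0877). It was not tested whether these probes tell the 2 copies apart.

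Angiotensin II acts on salt balance by way of aldosterone through the mineralocorticoid arm. Of its 11 measured genes, 3 were called higher in iLC than in Leydig cells, against 5.74% of all genes. Against MEF 0 were called, with 1 at an unadjusted p under 0.05 in each limma comparison. Hsd11b2, which shields the mineralocorticoid receptor from glucocorticoids, read 2874 and 4978 on the iLC arrays, 1024 and 775 on the Leydig arrays and 1086 on the MEF array (iLC minus Leydig 2.07 ± 0.39, adjusted p = 0.0225). Nedd4l, a ubiquitin ligase of the epithelial sodium channel (2.15, adjusted p = 0.0348), and the clock gene Per1 (1.45, adjusted p = 0.0402) were also higher. The dimmer Nedd4l probe differed by -0.02. Nedd4l and Per1 lost their calls without any 1 of the 4 arrays, and Hsd11b2 without any 1 of them except iLC replicate 1 (highest adjusted p = 0.147, 0.18 and 0.15).

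Among 19 measured genes of angiotensin receptor signalling, 3 were called between iLC and Leydig cells, against 11.4% of all genes. Against MEF 0 were called, with 6 at an unadjusted p under 0.05 in each limma comparison. Rgs4, which switches off the G proteins that the type 1 receptor uses, read 20006 and 33261 on the iLC arrays, 2899 and 2736 on the Leydig arrays and 7634 on the MEF array. It was higher in iLC than in Leydig cells by 3.19 ± 0.36 (adjusted p = 0.00421), and lost the call without Leydig replicate 2. Rgs4 had the same order of groups as Agtr1a, and 17.6% of all genes had both iLC arrays above every other array. Rgs2, another such regulator, ran the other way, at 3712 and 1612 on the iLC arrays, 55579 and 17561 on the Leydig arrays and 3087 on the MEF array (iLC minus Leydig -3.67 ± 0.65, adjusted p = 0.0187). Arrb1, an arrestin that takes up active receptors, was lower in iLC than in Leydig cells (-1.75 ± 0.40, adjusted p = 0.0428). The Rgs2 difference was -4.50 without Leydig replicate 2 and -2.84 without Leydig replicate 1, and -4.26 and -3.07 without iLC replicate 1 and 2. Its call was lost without any 1 array except iLC replicate 1 (adjusted p up to 0.0894), and that of Arrb1 without any 1 of the 4 arrays (up to 0.174).

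The last list held 22 measured transcription factors and cofactors known to act on renin or angiotensinogen genes. Between iLC and Leydig cells 1 was called higher and 3 lower in iLC, against 5.74% and 5.69% of all genes. In Leydig cells 3 were called higher than in MEF, against 3.39% of all genes. Between iLC and MEF 0 were called, where 4 had an unadjusted p under 0.05 in limma. Esr1, the estrogen receptor, read 615 and 767 on the iLC arrays, 10872 and 16255 on the Leydig arrays and 411 on the MEF array. It was lower in iLC than in Leydig cells, with a difference of -4.24 ± 0.35 (adjusted p = 0.00183) and higher in Leydig cells than in MEF by 4.96 ± 0.43 (adjusted p = 0.00392), and both calls held without each 1 of the 4 arrays. Nfia and Nr2f2 were also lower in iLC, with iLC minus Leydig differences of -2.41 (adjusted p = 0.00789) and -2.19 (adjusted p = 0.0162). Nfia lost that call when iLC replicate 1 or Leydig replicate 2 was left out (adjusted p up to 0.065) and Nr2f2 without any 1 of the 4 arrays (0.0924).

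Nfia and Nr2f2 were higher in Leydig cells than in MEF by 2.14 (adjusted p = 0.0309) and 2.10 (adjusted p = 0.0473), calls lost without any 1 of the 4 arrays. Vdr, the vitamin D receptor, which represses renin transcription, went the other way. It read 33475 and 10429 on the iLC arrays, 1367 and 602 on the Leydig arrays and 2152 on the MEF array. Vdr had the same order of groups as Agtr1a, with the iLC arrays above all others as for 17.6% of all genes. It was higher in iLC than in Leydig cells by 4.34 ± 0.65 (adjusted p = 0.0105), or 4.38 by its other probe, a call lost without either Leydig array (highest adjusted p = 0.108). The difference was 3.76 without Leydig replicate 2 and 4.92 without Leydig replicate 1, and 3.50 and 5.18 without iLC replicate 1 and 2. Against MEF the difference of 3.11 ± 0.80 did not pass (adjusted p = 0.153).

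**Figure D5:**
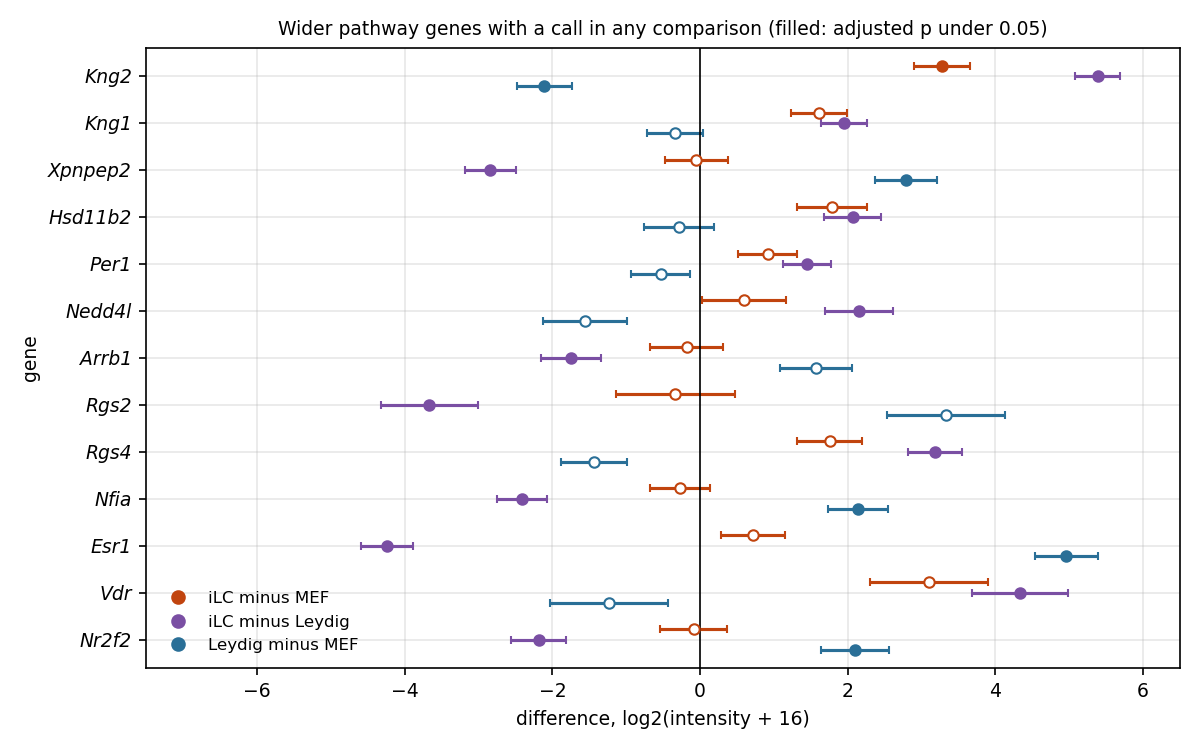
Difference in log2(intensity + 16), with its standard error, for the 13 wider pathway genes called in at least 1 comparison, drawn for each pair of groups. Filled circles have an adjusted p under 0.05. Esr1 lies at -4.24 and Vdr at 4.34 for iLC minus Leydig, and Kng2 at 5.39, a value that rests on 1 of its 3 probes and on dim Leydig readings.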

How the data were processed

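The deposited table holds probe intensities on a linear scale, 1 column per array, as the authors processed them; the steps and software behind them, detection calls and scan batches are not stated in the sources used here. The 1st percentile was -10.1 and 23.7 on the iLC arrays, 36.9 and 21.0 on the Leydig arrays and 83.8 on the MEF array, so dim probes carry each array's own offset. The labels' protocols give amplification and Cy5 labelling of total RNA.

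Probes were named through the platform annotation (21876 with 1 gene, 0 with several, 4547 with none); 21825 matched an Entrez identifier in RefSeq, of which 0 had another symbol. The brightest probe over the 5 arrays stood for each of 19084 genes. Values below 0 were set to 0 and taken to log2 after adding 16, which shrinks differences of dim genes. A linear model with a mean for each group was fitted in limma 3.58.1 under R 4.3.3 (lmFit, eBayes; 2 residual and 4.19 prior degrees of freedom), two-sided, with Benjamini-Hochberg adjustment over all genes and a threshold of 0.05. MEF, with 1 array, took its spread from the iLC and Leydig pairs. The fit was tested on simulated data in which 200 of 19084 genes were changed. For iLC against MEF and iLC against Leydig it recovered 84% and 90.5% of log2 changes of 4, and 0% of log2 changes of 2. In the data far more genes (2181) were called between iLC and Leydig cells, among them Per1 at 1.45. The adjusted threshold was therefore less strict there, and the simulated recovery does not carry over. A gene not called is still not shown to be unchanged.

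The 6 listed genes and the wider lists were chosen with earlier results of these data known. Genes named outside the 6 were every called gene of a wider list, up to 3 genes of a list with none called, and 3 genes nearest in profile, leaving out predicted genes, clones, olfactory, vomeronasal and pseudogenes; Agtr1b, Mas1 and single markers were named after their values were seen. Alternatives covered the pseudocount, filters, scaling, floor, low ends, probe choice, variance model, samples in the fit, the replicate block and each array left out.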

Additional observations from a re-analysis of the deposited data

How the results depend on the processing

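The 15 differences of the 5 genes kept their direction under the settings run, except those of iLC minus MEF for Ace (3 settings) and Agtr2 (1 setting), whose values are given above; filters, the variance model and the samples in the fit leave these differences as they are by construction. The number of genes called between iLC and MEF, 109, became 9 and 287 with 1 and 64 added before log2, 231 and 393 without dim genes, 415, 363 and 328 with median centring, quantile normalization and a floor, 249 with an intensity trend, 0 with only these groups in the fit and 0 without any 1 array (2137 to 2881 at an unadjusted p under 0.05 in limma). Median centring made 37.8% of those calls higher, against 49.5%. Leaving out 1 array gave 704 to 1267 calls, against 2181, between iLC and Leydig cells and 149 to 963, against 1408, between Leydig cells and MEF. For the wider lists it gave 3 to 7, 1 to 2 and 0. Their 1 call between iLC and MEF became 0 with 1 added, with genes above the median only, with probes averaged per gene and with only these groups in the fit; their 5 calls between Leydig cells and MEF became 3 with 1 added and 2 with only these groups. Of 310 repeats of single wider-list calls, 246 stayed past the threshold and none changed direction. The median of all genes for iLC minus MEF moved by 0.16 with quantile normalization and 0.22 with aligned low ends. The 2 numbered iLC and Leydig arrays share only a number (correlation of same-numbered deviations 0.06, from 2 pairs); with the replicate block, on those 4 arrays, 3443 genes were called. The cause of these changes was not tested, except that leaving out an array or a group takes residual degrees of freedom. Signal over background is unknown, so dim readings limit Agt and, less so, Ace outside Leydig cells, and Agtr2 on Leydig replicate 2.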
